A study of Mus musculus with 29 samples.

Results

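The 10 genes described here encode the angiopoietin ligands (Angpt1 and Angpt2), their receptors (Tek, also called Tie2, and Tie1), Notch ligands and receptors of the vessel wall (Dll4, Jag1, Notch1 and Notch4) and a pair of genes of sprouting tip cells (Esm1 and Apln). They were found by their symbols among 25746 Ensembl genes with deposited counts, and all 10 were among the 17031 genes with enough counts to be tested. After a cortical stroke, RNA of Angpt1 and Angpt2 was about 2.1-fold and 2.31-fold higher in wildtype (WT) mice, and RNA of Tek was lower at 0.675 times the level of non-stroked mice. Angpt1 also rose in Rag2-/- mice and Angpt2 in NSG mice. With the cohort as a covariate neither ligand was called in WT mice, whereas Tek, Tie1 and Dll4 were called lower, among 2096 of 17031 genes. Within the Imm2 cohort alone Angpt1 was called higher and the same 3 genes lower, where 8.72% of all genes were called. Over both cohorts the Tek call was lost in most fits leaving out 1 mouse. The calls in Rag2-/- and NSG mice were each lost in some alternative fits. In the fit of all samples, the number of these genes called in each strain lay near the share over all genes.

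Angiopoietin-1, made largely by pericytes and other mesenchymal cells around vessels, activates the endothelial receptor Tie2 and keeps vessels quiet and tight. Angiopoietin-2, released mainly by endothelium, can oppose this signal and accompanies remodelling, and Tie1 is a related receptor that modulates Tie2. In a vascular sprout, Dll4 on the leading tip cell activates Notch receptors on its neighbours and restrains them from becoming tip cells, whereas Jag1 counteracts Dll4. Endocan, the product of Esm1, and apelin, the product of Apln, are widely used marks of tip cells.

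Brain RNA was sequenced from 29 mice in 8 groups, all 3 months old, to compare a photothrombotic stroke of the sensorimotor cortex between immunocompetent and immunodeficient mice. Mice without stroke were 4 WT, 3 Rag2-/- and 4 NSG. Stroked cortex was taken 21 days post injury (dpi) from 4 WT mice without treatment, 3 Rag2-/- and 3 NSG mice, from 3 WT mice given tacrolimus by subcutaneous pump from 0 dpi (WT-Tacr acute) and from 5 WT mice given it from 7 dpi (WT-Tacr delayed). WT mice were of C57BL/6 background. Rag2-/- mice lack mature T and B cells, and NSG (NOD scid gamma) mice, which carry changes in Prkdc and Il2rg on another strain background, additionally lack NK cells. Tacrolimus blocks calcineurin and so the activation of T cells. The methods place non-stroked RNA in the contralesional site whereas the results speak of naive mice, and untreated non-stroked WT mice were the only controls here for both tacrolimus groups.

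Total counts ran from 17789044 to 43403413 per sample. Sample labels name 2 cohorts. Imm2 holds 20 samples (median 37223696 counts), among them every non-stroked, Rag2-/- and NSG sample. TF holds 9 samples (median 23155303 counts), namely 2 stroked WT, 2 WT-Tacr acute and all 5 WT-Tacr delayed mice. RNA of 4 Y-linked genes was absent or nearly so in 14 samples (at most 0.0849 summed CPM, that is counts scaled to a common library size) and present in 15 (at least 122 CPM). All 9 TF samples belonged to the former, and all non-stroked WT and NSG samples to the latter. In stroked WT mice the 2 Imm2 samples carried Y-linked RNA and the 2 TF samples did not, so that cohort and sex cannot be told apart there. Rag2 itself had at most 2 counts in any sample and cannot check the strain. B230118H07Rik, a gene next to Rag2, had 0 to 4 counts in Rag2-/- mice against 274 to 1241 counts in the other mice. Neuronal markers summed to between 4280 and 7920 CPM and endothelial markers to between 351 and 699 CPM, so that both cell types of cortex were present in every sample. Markers of tissue outside cortex varied more, from 4.87 to 1600 CPM for choroid plexus and from 101 to 1040 CPM for striatum and thalamus. Non-stroked WT mice alone had 10.7 to 825 CPM of the choroid plexus markers. The labels call each sample a separate mouse only through its number, and p-values measure the spread between these samples.

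Upstream sequence is shown for Tek, the receptor that fell in WT mice, for Dll4, which had the lowest fold change of the 10 genes in WT and Rag2-/- mice, and for the tip cell genes Esm1 and Apln. Of the 10 genes, 8 had a RefSeq start sequence on GRCm38.p6, Angpt1 and Angpt2 not being among them. Each line holds the 250 bases before the RefSeq start of transcription, 5′ to 3′ on the strand of the gene, and capitals mark a match to 1 of 4 short motifs described after the sequences. The Tek stretch is chr4:94739039-94739288 (plus strand), that of Dll4 chr2:119325534-119325783 (plus strand), that of Esm1 chr13:113209409-113209658 (plus strand) and that of Apln chrX:48034854-48035103 (minus strand).
Tek: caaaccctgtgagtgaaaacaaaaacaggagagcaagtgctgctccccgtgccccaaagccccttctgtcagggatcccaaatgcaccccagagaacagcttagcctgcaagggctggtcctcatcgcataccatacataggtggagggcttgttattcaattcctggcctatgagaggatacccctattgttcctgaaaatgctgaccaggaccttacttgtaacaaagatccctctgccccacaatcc
Dll4: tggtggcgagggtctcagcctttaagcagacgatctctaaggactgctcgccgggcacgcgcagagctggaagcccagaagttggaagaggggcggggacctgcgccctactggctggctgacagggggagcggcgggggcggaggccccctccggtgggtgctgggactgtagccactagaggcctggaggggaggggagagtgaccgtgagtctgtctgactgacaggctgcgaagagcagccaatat
Esm1: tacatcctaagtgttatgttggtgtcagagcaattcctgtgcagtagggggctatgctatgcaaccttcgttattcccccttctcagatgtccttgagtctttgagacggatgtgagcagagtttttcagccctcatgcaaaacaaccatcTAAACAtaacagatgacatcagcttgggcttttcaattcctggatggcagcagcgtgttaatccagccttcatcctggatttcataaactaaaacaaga
Apln: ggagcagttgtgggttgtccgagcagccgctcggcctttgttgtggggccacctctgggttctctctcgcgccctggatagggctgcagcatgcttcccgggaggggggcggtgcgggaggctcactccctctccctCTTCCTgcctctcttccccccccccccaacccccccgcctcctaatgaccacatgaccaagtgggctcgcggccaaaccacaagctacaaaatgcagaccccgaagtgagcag

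The motifs, searched on both strands, were the ETS core AGGAAG, the forkhead core TGTTTA, the RBPJ core TGGGAA and the hypoxia response core ACGTG. In Apln the capitals are the reverse complement of the ETS core, at -113 to -108 from the start. In Esm1 they are the reverse complement of the forkhead core, at -99 to -94. The stretches of Tek and Dll4 held none of the 4 motifs. Among the 8 genes, 3 (Tie1, Notch4 and Apln) held the ETS core, 1 (Esm1) the forkhead core, 1 (Tie1) the RBPJ core and 0 the hypoxia response core. These motifs occurred in 29.5%, 12%, 21.6% and 16.6% of 32851 RefSeq promoter stretches of the same length. A match is a run of letters and not a measured binding site.

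In GRCm38, Angpt1 lies on chromosome 15 (42424723 to 42676977, minus strand) and Angpt2 on chromosome 8 (18690263 to 18741562, minus strand). Angpt2 lies within Mcph1 on the opposite strand, which had 199 to 462 counts. Tek (94739289 to 94874976, plus strand) and Tie1 (118471191 to 118490061, minus strand) are both on chromosome 4. Dll4 (119325784 to 119335962, plus strand), Notch1 (26457903 to 26516663, minus strand) and Jag1 (137081456 to 137116644, minus strand) are on chromosome 2, and Notch4 (34564268 to 34588503, plus strand) is on chromosome 17. Esm1 on chromosome 13 (113209659 to 113218098, plus strand) overlaps Gzmk on the opposite strand, which had 1 to 42 counts, and Apln is on the X chromosome (48025146 to 48034853, minus strand). Whether reads were counted by strand is not given in the sources used here, so that reads of Angpt2 and Mcph1, or of Esm1 and Gzmk, could be shared.

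Per kilobase of exon, the 10 genes spanned a wide range of levels. Apln had the highest mean over the 29 mice, 8.7 RPKM (reads per kilobase of exon, scaled to library size), with group means from 7.13 to 10.5 RPKM. Notch1 followed at 3.12 RPKM, Tek at 2.52 RPKM and Tie1 at 1.7 RPKM. The group means of Tek (1.87 to 2.99 RPKM) and Tie1 (1.29 to 2.34 RPKM) overlapped, as did those of Jag1 (1.11 to 1.75 RPKM, mean 1.42) and Angpt1 (0.768 to 1.83 RPKM, mean 1.31). Notch4 averaged 0.775 RPKM, Angpt2 0.61 RPKM and Dll4 0.576 RPKM, and their group means overlapped too. Esm1 was close to the detection limit, with 0 to 23 counts per sample and a mean of 0.124 RPKM, and 2 samples had 0 counts, which allows up to 3 counts each when only counting error is considered.

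**Figure D1:**
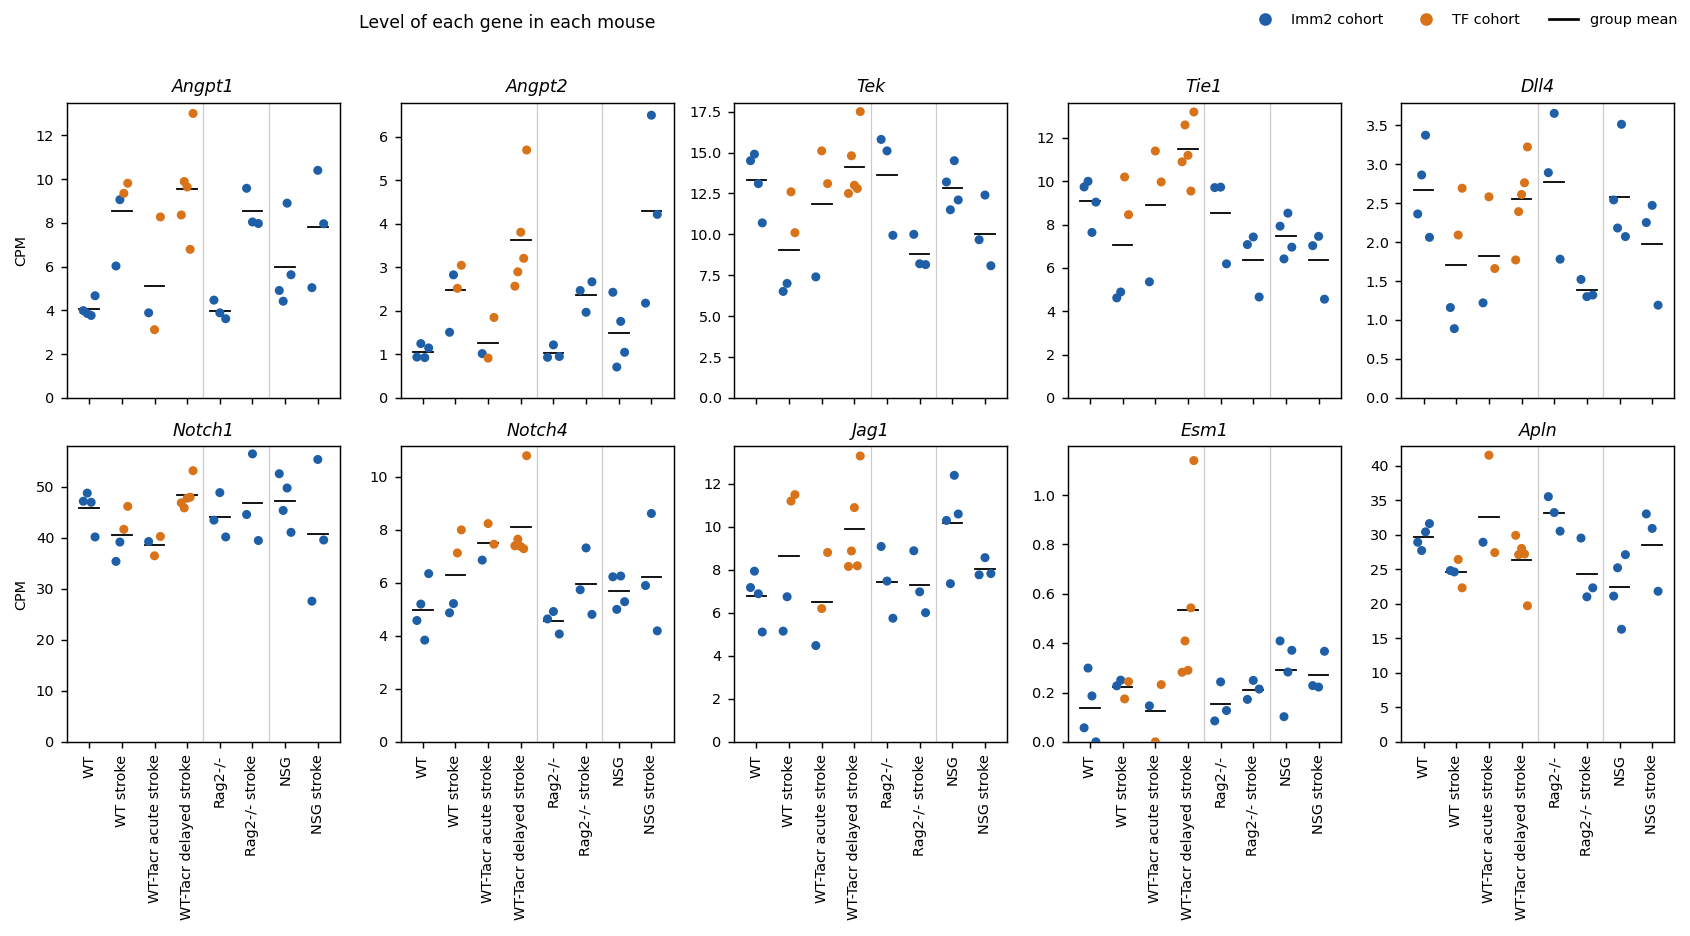
Level of each of the 10 genes in CPM (linear axis from 0) in each mouse by group, with blue points for the Imm2 cohort, orange points for the TF cohort and a black line for the group mean. Angpt1 and Angpt2 are higher in stroked than in non-stroked WT mice without overlap, and within stroked WT mice the orange points of Tek and Tie1 lie above the blue ones.

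The first question was how these genes stood 3 weeks after stroke in each strain. In WT mice 3 of the 10 genes were called differentially expressed (adjusted p below 0.05, edgeR's quasi-likelihood test with Benjamini-Hochberg adjustment over 17031 genes), where 26.9% of all genes tested were called. Angpt1 and Angpt2 rose and Tek fell. In Rag2-/- mice 1 gene was called, Angpt1, against 8.23% of all genes, and in NSG mice 1 gene, Angpt2, against 21.9% of all genes. Counts of 3, 1 and 1 of 10 thus lay near those backgrounds, and the 10 genes as a list did not stand apart. Their median log2 fold changes were 0.081 (WT), 0.0275 (Rag2-/-) and -0.15 (NSG), beside medians of -0.000445, -0.0033 and 0.0299 over all genes. Stroked and non-stroked mice did not overlap for 3 genes in WT mice (29.8% of all genes), for 4 in Rag2-/- mice (35.7%) and for 0 in NSG mice (25%).

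Angpt1, the ligand that activates Tie2, stood at 3.99, 3.86, 3.77 and 4.67 CPM in the 4 non-stroked WT mice. The 4 stroked WT mice had 6.03, 9.06, 9.35 and 9.81 CPM. Every stroked mouse was above every non-stroked one, and the log2 fold change was 1.07 ± 0.263 (SE, n = 4 and 4, edgeR adjusted p = 0.00446). With the cohort as a covariate the value was 0.85 ± 0.284 (SE, edgeR adjusted p = 0.0506), just short of the threshold. Non-stroked Rag2-/- mice had 4.47, 3.89 and 3.62 CPM and stroked ones 9.58, 8.04 and 7.97 CPM. Again the groups were apart, at a log2 fold change of 1.09 ± 0.304 (SE, n = 3 and 3, edgeR adjusted p = 0.025). That call was lost in 4 of 6 fits leaving out 1 of these mice, with adjusted p between 0.0375 and 0.118. In NSG mice the values overlapped, with 4.91, 4.42, 8.9 and 5.63 CPM without and 5.04, 10.4 and 7.96 CPM with stroke. The NSG difference of 0.39 ± 0.277 on the log2 scale (SE, edgeR adjusted p = 0.324) did not pass the test.

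Angpt2, the ligand that can oppose Tie2 activation, was less abundant. Non-stroked WT mice had 0.94, 1.25, 0.928 and 1.15 CPM, whereas stroked WT mice had 1.51, 2.83, 2.52 and 3.05 CPM. The groups did not overlap, with a log2 fold change of 1.21 ± 0.346 (SE, edgeR adjusted p = 0.0123). With the cohort as a covariate the difference was 1.005 ± 0.386 (SE, edgeR adjusted p = 0.0885) and no longer called. Rag2-/- mice had 0.934, 1.22 and 0.953 CPM without stroke and 2.47, 1.97 and 2.67 CPM with stroke. There, the groups were apart but the log2 fold change of 1.19 ± 0.403 did not pass (SE, edgeR adjusted p = 0.0674), although DESeq2 called it. Non-stroked NSG mice had 2.43, 0.711, 1.76 and 1.05 CPM and stroked NSG mice 2.18, 6.5 and 4.22 CPM. The NSG values overlapped through 1 non-stroked mouse, and the log2 fold change of 1.53 ± 0.355 passed the test (SE, n = 4 and 3, edgeR adjusted p = 0.00372). It was not called when only the NSG groups were fitted. Leaving out stroked NSG mouse 2 added a call for Notch1 and leaving out stroked mouse 3 one for Apln. Mouse 2 had the highest Notch1 and mouse 3 the lowest Apln of the stroked NSG mice. In these fits 4102 of 17230 and 4737 of 17247 genes were called.

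Tek, the Tie2 receptor of endothelium, went the other way. Its values in non-stroked WT mice were 14.5, 14.9, 13.1 and 10.7 CPM. Stroked WT mice had 6.51 and 7.0 CPM in the Imm2 cohort and 12.6 and 10.1 CPM in the TF cohort. The Imm2 pair was below every non-stroked mouse and the TF pair overlapped them, and the log2 fold change of -0.57 ± 0.208 was called (SE, edgeR adjusted p = 0.0445). That call is close to the threshold and was lost in 6 of 8 fits that left out 1 mouse, where the adjusted p ranged from 0.0152 to 0.131. In Rag2-/- mice Tek stood at 15.8, 15.1 and 9.94 CPM without and 10, 8.2 and 8.15 CPM with stroke, a log2 difference of -0.63 ± 0.24 (SE, edgeR adjusted p = 0.111). NSG mice had 13.2, 11.5, 14.5 and 12.1 CPM without and 9.67, 12.4 and 8.08 CPM with stroke, a log2 difference of -0.35 ± 0.224 (SE, edgeR adjusted p = 0.272). Neither of these differences passed the test, and in both strains the highest stroked value lay above the lowest non-stroked one.

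Tie1, the second receptor of the family, had 9.74, 10, 7.64 and 9.04 CPM in non-stroked WT mice. In stroked WT mice it was split by cohort like Tek, with 4.62 and 4.89 CPM in Imm2 and 10.2 and 8.46 CPM in TF. The log2 difference over all 4 stroked mice was -0.38 ± 0.239 and was not called (SE, edgeR adjusted p = 0.242). Rag2-/- and NSG mice overlapped between stroke and no stroke as well, at 4.66 to 7.43 CPM against 6.19 to 9.73 CPM in Rag2-/- and 4.56 to 7.46 CPM against 6.42 to 8.53 CPM in NSG mice.

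Among the Notch genes no member passed edgeR's test for stroke in the fit of all 8 groups, in any strain. Dll4 was called in Rag2-/- mice by DESeq2 and by edgeR with the cohort as a covariate (adjusted p = 0.0254), and in WT mice by edgeR with the cohort as a covariate (adjusted p = 0.0062). Dll4, the tip cell ligand, stood at 2.36, 2.86, 3.37 and 2.06 CPM in non-stroked WT mice. It was at 1.16 and 0.889 CPM in the stroked Imm2 pair and at 2.09 and 2.69 CPM in the TF pair, which overlapped the controls (log2 difference -0.66 ± 0.307 SE, edgeR adjusted p = 0.114). Rag2-/- mice had 2.89, 3.65 and 1.78 CPM without and 1.52, 1.3 and 1.32 CPM with stroke. All stroked Rag2-/- mice were below all non-stroked ones, at a log2 difference of -1.005 ± 0.358 (SE, edgeR adjusted p = 0.085). NSG mice overlapped, with 2.07 to 3.51 CPM without and 1.19 to 2.47 CPM with stroke. Jag1, the ligand that counteracts Dll4, was at 5.11 to 7.94 CPM in non-stroked WT mice, 5.15 and 6.75 CPM in the stroked Imm2 pair and 11.2 and 11.5 CPM in the TF pair. Its log2 difference of 0.34 ± 0.238 did not pass (SE, edgeR adjusted p = 0.29), and the TF pair alone exceeded the controls.

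Notch1, a receptor that many brain cells besides endothelium express, stayed within a narrow span in WT mice. It was at 40.2 to 48.8 CPM in non-stroked and 35.4 to 46.2 CPM in stroked WT mice (log2 difference -0.17 ± 0.14 SE, edgeR adjusted p = 0.378). Notch4, the mainly endothelial receptor, was at 3.84 to 6.35 CPM in non-stroked WT mice and at 4.87, 5.22, 7.13 and 8.0 CPM in stroked ones. The groups overlapped, with a log2 difference of 0.33 ± 0.199 (SE, edgeR adjusted p = 0.218). Notch1 spread more widely in the other strains, at 39.5 to 56.5 CPM in stroked Rag2-/- and 27.6 to 55.4 CPM in stroked NSG mice. In Rag2-/- and NSG mice neither receptor was called in the fit of all samples.

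Esm1 and Apln serve as marks of tip cells, but in bulk tissue their levels cannot be assigned to these cells. Esm1 had 2, 11, 7 and 0 counts in non-stroked and 9, 9, 4 and 8 counts in stroked WT mice. At this depth no difference was detectable (log2 difference 0.72 ± 0.65 SE, edgeR adjusted p = 0.432). Apln, which encodes the ligand of the apelin receptor, had 28.9, 27.7, 30.4 and 31.6 CPM in non-stroked and 24.8, 24.6, 26.4 and 22.3 CPM in stroked WT mice. All stroked WT mice were below all non-stroked ones, yet the log2 difference of -0.27 ± 0.155 did not pass the test over all genes (SE, edgeR adjusted p = 0.193). It was called when only the WT groups compared were fitted. Rag2-/- mice had 35.5, 33.2 and 30.5 CPM without and 29.5, 21.0 and 22.3 CPM with stroke, again without overlap (log2 difference -0.45 ± 0.179 SE, edgeR adjusted p = 0.135). NSG mice had 21.1, 25.2, 16.3 and 27.1 CPM without and 33.0, 30.9 and 21.8 CPM with stroke. There the sign was opposite and the groups overlapped (log2 difference 0.35 ± 0.167 SE, edgeR adjusted p = 0.132).

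**Figure D2:**
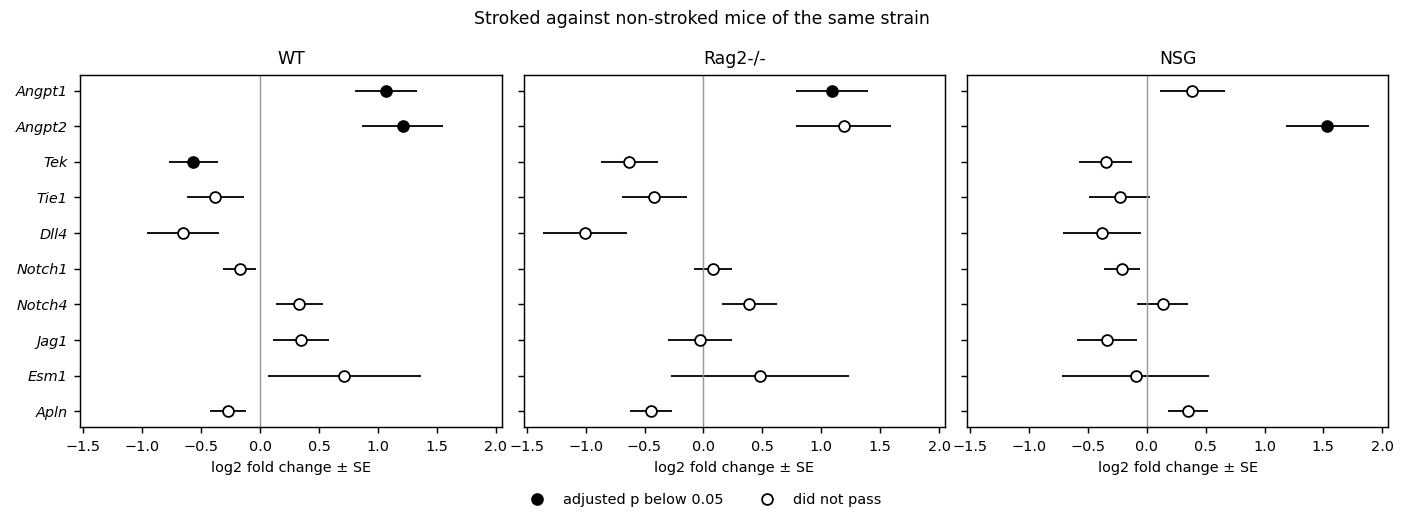
Log2 fold change of stroked against non-stroked mice for each of the 10 genes in WT, Rag2-/- and NSG mice, with bars for 1 SE and filled points for an adjusted p below 0.05. Filled points are Angpt1, Angpt2 and Tek in WT, Angpt1 in Rag2-/- and Angpt2 in NSG mice, and Apln lies left of 0 in WT and Rag2-/- but right of 0 in NSG mice.

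Whether strains differed in their response to stroke was tested as a difference of differences. None of the 10 genes passed in NSG against WT (0.0294% of all genes called), Rag2-/- against WT (0% called) or NSG against Rag2-/- mice (0% called) with edgeR, and DESeq2 called none of them either. At an unadjusted edgeR p below 0.05 the counts were 1, 0 and 1 of the 10 genes, beside 2167, 713 and 1598 of all 17031 genes. The member was Apln in both cases. Its response in NSG mice exceeded that in WT mice by 0.62 ± 0.228 on the log2 scale (SE, edgeR adjusted p = 0.279) and that in Rag2-/- mice by 0.80 ± 0.245 (SE, edgeR adjusted p = 0.468). The Angpt1 response in NSG mice was smaller than in WT mice by a log2 difference of -0.68 ± 0.382 (SE, edgeR adjusted p = 0.446). Thus Angpt1 was called in 2 strains and not in NSG mice, but a difference between the strains was not shown.

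Because the stroked WT mice came from both cohorts and the controls only from Imm2, stroke in WT was also compared within Imm2, with 2 stroked against 4 non-stroked mice. In this fit 8.72% of all genes were called, and 4 of the 10 genes. Angpt1 was higher at 0.90 (edgeR adjusted p = 0.046), and Angpt2 at 1.03 did not pass (edgeR adjusted p = 0.15). Tek, Tie1 and Dll4 fell by 0.97, 0.93 and 1.37 on the log2 scale (edgeR adjusted p = 0.0048, 0.016 and 0.015). Compared with the fit over both cohorts, Tie1 and Dll4 were additional calls and the value of Tek went from -0.57 to -0.97. Jag1 and Notch4 were at -0.18 and 0.02 and did not pass. In the same Imm2 fit, Tek (-0.62) and Dll4 (-0.99) were also called for stroke in Rag2-/- mice, with edgeR adjusted p of 0.0381 and 0.0423. For stroke in WT mice, fits with Y-linked RNA as a covariate also called the 3 genes that fell, Tek at -0.92, Tie1 at -0.81 and Dll4 at -1.17, with edgeR adjusted p of 0.000159, 0.00122 and 0.0015. In Rag2-/- mice that covariate left Tek at -0.40 and Dll4 at -0.66 uncalled (edgeR adjusted p = 0.0887 and 0.0968) and called Angpt1 and Angpt2. In NSG mice, whose 3 stroked samples were 2 without and 1 with Y-linked RNA, it turned Tek (-0.78), Tie1 (-0.75), Dll4 (-1.02) and Jag1 (-0.71) into calls, with edgeR adjusted p of 0.00305, 0.00883, 0.0133 and 0.033. The covariate was estimated over all groups, and in stroked WT and WT-Tacr acute mice it coincided with the cohort. These values therefore do not separate sex from cohort, also in NSG mice, which are all of Imm2. Within Imm2 and without the covariate, only Angpt2 of the 10 genes was called for stroke in NSG mice.

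**Figure D3:**
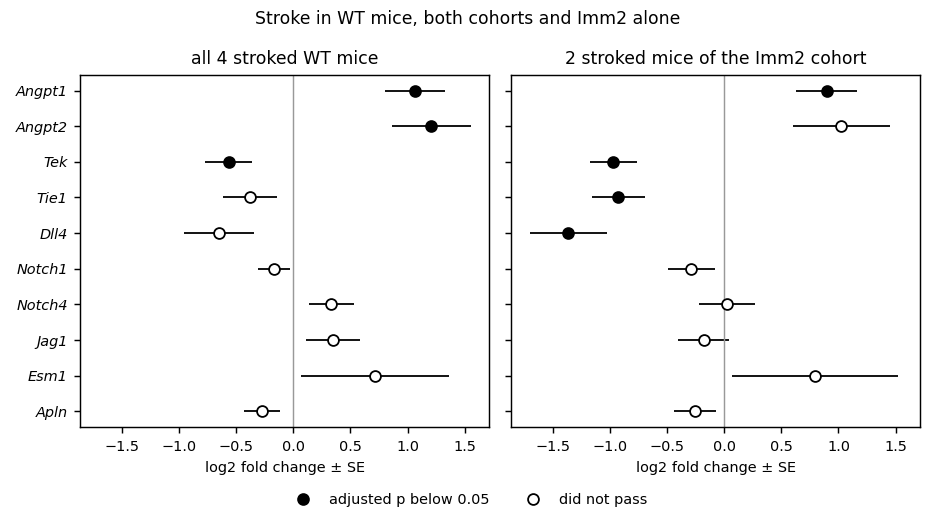
Log2 fold change for stroke in WT mice with all 4 stroked mice and with the 2 of the Imm2 cohort against the same 4 non-stroked mice, with bars for 1 SE and filled points for an adjusted p below 0.05. Tek, Tie1 and Dll4 lie further left within Imm2 (-0.97, -0.93 and -1.37) than over both cohorts (-0.57, -0.38 and -0.66).

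In a bulk sample, fewer cells of a type and less RNA per cell cannot be told apart, so marker lists were set beside the 10 genes. The 18 endothelial markers averaged 4.28 log2 CPM in non-stroked and 4.2 log2 CPM in stroked WT mice, where the 2 Imm2 mice had 3.87 and 3.92 and the 2 TF mice 4.6 and 4.4. Of these 18 markers, 4 rose and 5 fell in WT mice, where 26.9% of all genes were called. Among them were Flt1 (-0.95) and Cldn5 (-0.92) that fell and Mfsd2a (0.91) that rose. Relative to the endothelial mean in the same sample, Tek was lower in stroked than in non-stroked mice with differences of -0.51 in WT mice, -0.49 in Rag2-/- mice and -0.37 in NSG mice on the log2 scale, and in each strain the groups did not overlap. Against the mean of Pecam1, Cdh5, Cldn5 and Esam alone, the differences of Tek were -0.32, -0.35 and -0.34. For Tie1 the relative difference was -0.36 in WT and -0.26 in NSG mice without overlap and -0.30 in Rag2-/- mice with overlap, and against the 4 markers it was -0.17, -0.23 and -0.16. For Dll4 it was -0.81 in Rag2-/- and -0.42 in NSG mice without overlap and -0.65 in WT mice with overlap, and against the 4 markers it was -0.66, -0.385 and -0.455. On the first scale Angpt1 and Angpt2 also did not overlap, being higher in stroked WT (1.12 and 1.22) and Rag2-/- mice (1.20 and 1.26). The same held in Rag2-/- mice for Notch4 (0.48) and Apln (-0.34). The share of all genes without overlap on this scale was not computed, nor was overlap against the 4 markers. These relative values are descriptions and were not tested.

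Fibroblast markers moved with the angiopoietins. The 7 markers (Col1a1, Col1a2, Col3a1, Dcn and Lum among them) summed to 166 to 194 CPM in non-stroked WT mice, to 456 and 607 CPM in the stroked Imm2 pair and to 872 and 891 CPM in the TF pair. In Rag2-/- mice the sum was 157 to 216 CPM without and 512 to 527 CPM with stroke. In NSG mice it was 155 to 293 CPM without and 279, 1580 and 469 CPM with stroke, and the stroked NSG mouse at 1580 CPM also had the highest Angpt1 and Angpt2 of its group. No marker of the list was at 0 in a group. After subtracting group means, log2 CPM over the 29 mice correlated with the mean of the fibroblast markers at r = 0.895 for Angpt1 and r = 0.827 for Angpt2, against 0.388 for Tek and 0.326 for Tie1. With the endothelial mean the receptors came first, at r = 0.953 for Tie1, 0.946 for Tek, 0.833 for Jag1, 0.797 for Dll4 and 0.726 for Notch4 against 0.422 for Angpt2 and 0.404 for Angpt1. Notch1 had 0.415, Esm1 0.066 and Apln 0.019. The division was less clear with other markers. With the pericyte and smooth muscle mean, r was 0.848 for Jag1, 0.841 for Tek, 0.748 for Tie1, 0.724 for Angpt2 and 0.637 for Angpt1, and with the microglia mean it was 0.755 for Angpt1. These values share libraries, depth and dissection and are given as a description, and the part of the fibroblast or endothelial content of a sample in the changes of these genes was not tested.

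**Figure D4:**
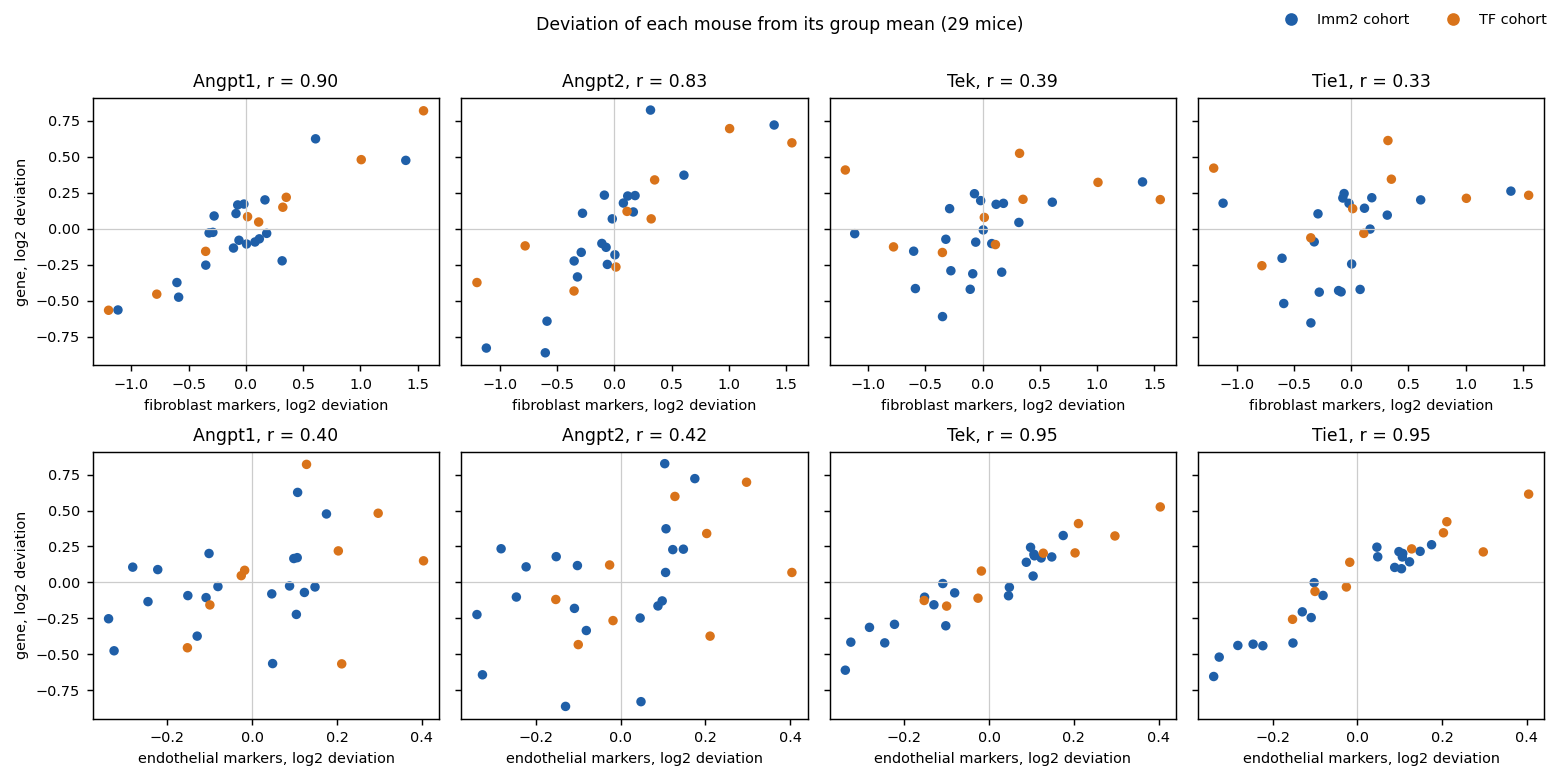
Deviation of Angpt1, Angpt2, Tek and Tie1 from the group mean (log2 CPM, vertical axis) against that of the fibroblast markers (upper row) and the endothelial markers (lower row, log2, horizontal axis) in 29 mice, coloured by cohort, with Pearson's r above each panel. Of these 2 marker sets, the ligands had the higher r with the fibroblast markers (0.895 and 0.827) and the receptors with the endothelial markers (0.946 and 0.953).

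The single genes with deviations most like those of Angpt1 were Dcn (r = 0.919), Ifi207 (0.918) and Cd36 (0.891), and for Angpt2 those were Cped1 (0.893), Ogn (0.883) and Colec12 (0.883). Dcn encodes the matrix proteoglycan decorin. Tek was closest to Abcb1a (0.92), Pecam1 (0.91) and Kdr (0.908), all known from brain endothelium, and Tie1 to Robo4 (0.91), Sema3g (0.901) and Tek (0.897). Dll4 was closest to Ushbp1 (0.854), Cyb561a3 (0.823) and Tek (0.808), and Jag1 to Fut4 (0.867), Fzd6 (0.85) and Abcb1a (0.846). The neighbours of Notch1 were Akap13 (0.876), Lrp1 (0.87) and Tenm3 (0.864), those of Notch4 were Ehd2 (0.812), Slc27a3 (0.807) and Izumo1 (0.789), and those of Apln were Gpt (0.852), Kcnk1 (0.844) and Hsd11b1 (0.837). The low counts of Esm1 gave weaker values, up to 0.71 with Serpina3g. Between members, r was 0.897 for Tek and Tie1, 0.816 for Tek and Jag1, 0.808 for Tek and Dll4, 0.713 for Angpt1 and Angpt2 and -0.595 for Esm1 and Apln.

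Other genes of these pathways were followed as lists. In WT mice, 18 of 52 such genes were called for stroke, 13 higher and 5 lower, where 26.9% of all genes were called. Within Imm2 there were 6 calls, where 8.72% of all genes were called. They were Lfng (1.07), Mfng (0.89), Maml3 (-0.82), Hes1 (0.56), Cxcr4 and Igfbp3. Of 6 further angiopoietin-Tie genes, Angpt4, another ligand of the family, rose by 2.33 ± 0.787 and Angptl1 by 0.83 on the log2 scale (edgeR adjusted p = 0.0299 and 0.0266), and the list median was 0.83. Of 16 genes of Notch processing, fringes and nuclear partners, 4 rose and 2 fell (median -0.09). Lfng, a fringe glycosyltransferase that adds sugars to Notch receptors, went from 10.3 ± 0.899 CPM (SD, n = 4) to 21.8 ± 1.55 CPM (SD, n = 4), a log2 fold change of 1.08 ± 0.0954 (SE, edgeR adjusted p = 3.19e-07), the smallest adjusted p of all genes in this comparison. Its relative Mfng rose by 1.04 (edgeR adjusted p = 0.000638), and Maml3, a coactivator of the Notch complex, fell by 0.83 (edgeR adjusted p = 0.0022). Of 7 further ligands and receptors, Notch2 rose by 0.77 and Jag2 fell from 45.5 to 35.7 CPM (list median -0.09). Of 8 Notch target genes, Hes5 rose by 0.69 and Nrarp fell by 0.37 (median -0.01), so over both cohorts the targets did not move one way. Hes1 was the 1 target called within Imm2, where it was higher by 0.56 (edgeR adjusted p = 0.0372). Within Imm2, Angpt4 (2.07, edgeR adjusted p = 0.155), Angptl1 (0.75, adjusted p = 0.215), Notch2 (0.61, adjusted p = 0.198), Jag2 (-0.28, adjusted p = 0.14), Hes5 (0.57, adjusted p = 0.283) and Nrarp (-0.20, adjusted p = 0.444) were not called.

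The same list of ligands, fringes and targets was followed in the other strains. In Rag2-/- mice 6 of 52 genes were called, where 8.23% of all genes were, among them Lfng (0.81), Maml2 (0.77), Numb (-0.43) and Jag2 (-0.35). In NSG mice 15 of 52 were called, 7 higher and 8 lower, where 21.9% of all genes were called. Lfng (0.85) and the protease subunit genes Psenen (0.55) and Adam17 (0.51) rose, whereas Notch3 (-0.58), Dner (-0.45), Jag2 (-0.31), Ptprb, the phosphatase acting on Tie2 (-0.68), Hes5 (-0.87) and Efnb2 (-0.56) fell. Lfng was at 11.7 CPM without and 20.4 CPM with stroke in Rag2-/- mice and at 12.9 and 23.4 CPM in NSG mice. Hes5, a Notch target of neural progenitors and astrocytes, rose in WT and fell in NSG mice, and the difference between the responses was -1.56 ± 0.36 (SE, edgeR adjusted p = 0.102), which missed the threshold. Within Imm2 the WT difference of 0.57 was not called (edgeR adjusted p = 0.283). Its means were 4.13 and 6.66 CPM in WT, 5.64 and 4.54 CPM in Rag2-/- and 6.52 and 3.58 CPM in NSG mice, without and with stroke.

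Of 15 tip cell genes other than Esm1 and Apln, 5 rose and 1 fell after stroke in WT mice (median 0.23, with 26.9% of all genes called). Within Imm2, 2 of the 15 rose, Cxcr4 (1.70) and Igfbp3 (0.91), and the median was -0.03. Cxcr4, a chemokine receptor of tip cells and also of leukocytes, rose by 2.26, Plaur, the urokinase receptor, by 1.12 and Igfbp3 by 0.96 (edgeR adjusted p = 0.0013, 0.00596 and 0.000712). Plaur, at 0.88, was not called within Imm2 (edgeR adjusted p = 0.0756). Rag2-/- mice had 2 higher, Cxcr4 (2.11) and Igfbp3 (0.74), with a median of 0.07, where 8.23% of all genes were called. NSG mice had 4 higher and 1 lower, where 21.9% of all genes were called. There Cxcr4 (1.70), Pgf (0.81) and Adm (0.81) had the largest changes, and the median was 0.19. Both Cxcr4 and Plaur are expressed by immune cells too. Of 8 microglia and macrophage markers, none of them at 0 in a group, 7 rose in WT mice, 5 in Rag2-/- mice and 7 in NSG mice. The shares of all genes called were 26.9%, 8.23% and 21.9%. Their summed level was 223 to 263 CPM without and 552 to 638 CPM with stroke in WT mice, and their part in the values of the tip cell genes was not tested.

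The next question was how tacrolimus bore on these genes after stroke. Against stroked WT mice, none of the 10 genes was called in WT-Tacr acute mice (0% of all genes called by edgeR) or in WT-Tacr delayed mice (0% called). At an unadjusted edgeR p below 0.05 there were 3 of the 10 genes in either comparison. Over all 17031 genes there were 2168 for acute and 3455 for delayed tacrolimus. DESeq2 called none of the 10. Both comparisons share the same 4 stroked WT mice. The medians of the 10 log2 differences were 0.0085 for acute and 0.456 for delayed tacrolimus, beside 0.0122 and 0.00714 over all genes.

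In WT-Tacr acute mice, Angpt1 was at 3.89 CPM in the Imm2 mouse and at 3.12 and 8.27 CPM in the TF mice. The first of these values lay in the range of non-stroked mice and 8.27 CPM in that of stroked WT mice. The log2 difference from stroked WT mice was -0.75 ± 0.286 (SE, edgeR adjusted p = 0.311). Angpt2 was at 1.02, 0.916 and 1.85 CPM in the same order, a log2 difference of -0.98 ± 0.381 (SE, edgeR adjusted p = 0.315). The fibroblast markers summed to 205, 153 and 557 CPM in these 3 mice, highest in the one with the highest ligand values. Without that mouse, acute mouse 3, Angpt1 was called lower than in stroked WT mice, at -1.26 ± 0.287 (SE, edgeR adjusted p = 0.00824). Leaving out the mouse with the highest value lowers the group by itself, so this call is no separate evidence. In that fit 1437 of 17262 genes were called, whereas every other fit leaving out 1 mouse of this comparison called 0 genes. Apln was at 28.9, 41.5 and 27.4 CPM, above all 4 stroked WT mice, without passing the test (log2 difference 0.41 ± 0.167 SE, edgeR adjusted p = 0.321). Acute and stroked WT mice did not overlap for 6.29% of all genes. Against non-stroked WT mice, 0 of the 10 genes were called by edgeR or DESeq2 (8.54% of all genes by edgeR). An unadjusted edgeR p below 0.05 was found for 1 of the 10, beside 4701 of all 17031 genes. That member was Notch4, which had 6.86, 8.24 and 7.46 CPM, above every non-stroked WT mouse (log2 difference 0.59 ± 0.213 SE, edgeR adjusted p = 0.0778). Between these groups 19.6% of all genes did not overlap.

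In WT-Tacr delayed mice, all from the TF cohort, all 10 log2 differences from stroked WT mice were above 0. The endothelial mean was also higher, at 4.59 log2 CPM against 4.2 log2 CPM in stroked WT mice. Relative to it, Angpt1 (-0.24), Notch1 (-0.133), Notch4 (-0.018), Jag1 (-0.144) and Apln (-0.295) lay below 0 and the others above. These relative values were not tested. Tek was at 12.5, 14.8, 13, 12.8 and 17.5 CPM and Tie1 at 10.9, 12.6, 11.2, 9.55 and 13.2 CPM. Their log2 differences from stroked WT mice were 0.65 ± 0.2 and 0.72 ± 0.23 (SE, edgeR adjusted p = 0.154 for both). Compared with the 2 stroked WT mice of TF alone (12.6 and 10.1 CPM for Tek, 10.2 and 8.46 CPM for Tie1) the delayed mice overlapped them, and with the cohort as a covariate the differences were 0.28 and 0.30. That covariate also put Angpt1 (-0.046) and Jag1 (-0.17) below 0. Without stroked WT mouse 3, of the TF cohort, Tek (0.84, edgeR adjusted p = 0.0454) and Tie1 (0.94, edgeR adjusted p = 0.0454) were called higher in delayed mice, among 476 genes. That mouse had the highest Tek and Tie1 of the stroked WT mice, so its removal lowers that group by itself.

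Against non-stroked WT mice, 5 of the 10 genes rose in WT-Tacr delayed mice, where 55.2% of all genes were called. Angpt1 was at 8.36, 9.89, 9.64, 6.79 and 13 CPM, above all controls (log2 fold change 1.23 ± 0.254 SE, edgeR adjusted p = 0.00029). Angpt2 was at 2.57, 2.9, 3.81, 3.21 and 5.7 CPM, also above all controls (1.76 ± 0.336 SE, edgeR adjusted p = 0.000129). Delayed and non-stroked WT mice did not overlap for 4 of the 10 genes and for 54% of all genes. Notch4 (0.69 ± 0.191 SE, edgeR adjusted p = 0.0036), Jag1 (0.54 ± 0.228 SE, edgeR adjusted p = 0.0468) and Esm1 (1.91 ± 0.592 SE, edgeR adjusted p = 0.00884) rose too. Since all delayed mice were of TF and all controls of Imm2, this comparison cannot be made within a cohort. With the cohort as a covariate, estimated through the WT and acute groups, 1 of the 10 genes was called, Tek at -0.73 (edgeR adjusted p = 0.0377), and Jag1 turned to -0.32.

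Delayed and acute tacrolimus were also compared directly. Here 3 of the 10 genes were called, where 20.3% of all genes were, and all 3 were higher in delayed mice. Angpt1 was higher by 0.91 ± 0.278 (SE, n = 5 and 3, edgeR adjusted p = 0.0249), with 1 acute mouse at 8.27 CPM inside the delayed range. Angpt2 was higher by 1.52 ± 0.373 (SE, edgeR adjusted p = 0.0117) and the groups did not overlap, which held for 17.8% of all genes. Esm1, at 7, 13, 7, 12 and 23 counts against 6, 0 and 6 counts, was higher by 1.97 ± 0.684 (SE, edgeR adjusted p = 0.0424). In CPM the Esm1 groups were apart, but 1 mouse decided the upper end, with 1.14 CPM against 0.282 to 0.543 CPM in the other 4. None of these calls was made within the TF cohort alone, with 5 delayed and 2 acute mice, where the log2 differences were 0.77, 1.41 and 2.10 (edgeR adjusted p = 0.21, 0.16 and 0.19). In that fit 0 of 15984 genes were called at all, and the same held without acute mouse 1 (0 of 17260), without acute mouse 2 (0 of 17264) and with only the groups compared (0 of 15741), so the loss is not particular to these genes. No member was called without acute mouse 1, with Angpt2 at 1.37 (edgeR adjusted p = 0.104), or without acute mouse 2, with Angpt2 at 1.34 (edgeR adjusted p = 0.0955). Without delayed mouse 5, Angpt2 was the 1 gene called, at 1.31 (edgeR adjusted p = 0.04), and without acute mouse 3 there were 4. Fibroblast markers summed to 549 to 1970 CPM in delayed and 153 to 557 CPM in acute mice, and other cell types moved as well. Of the markers, 7 of 8 for microglia and macrophages, 5 of 12 for pericytes and smooth muscle and 5 of 8 for choroid plexus were called higher in delayed mice, and 5 of 6 for neurons were called lower. The part of any of these in the differences was not tested.

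**Figure D5:**
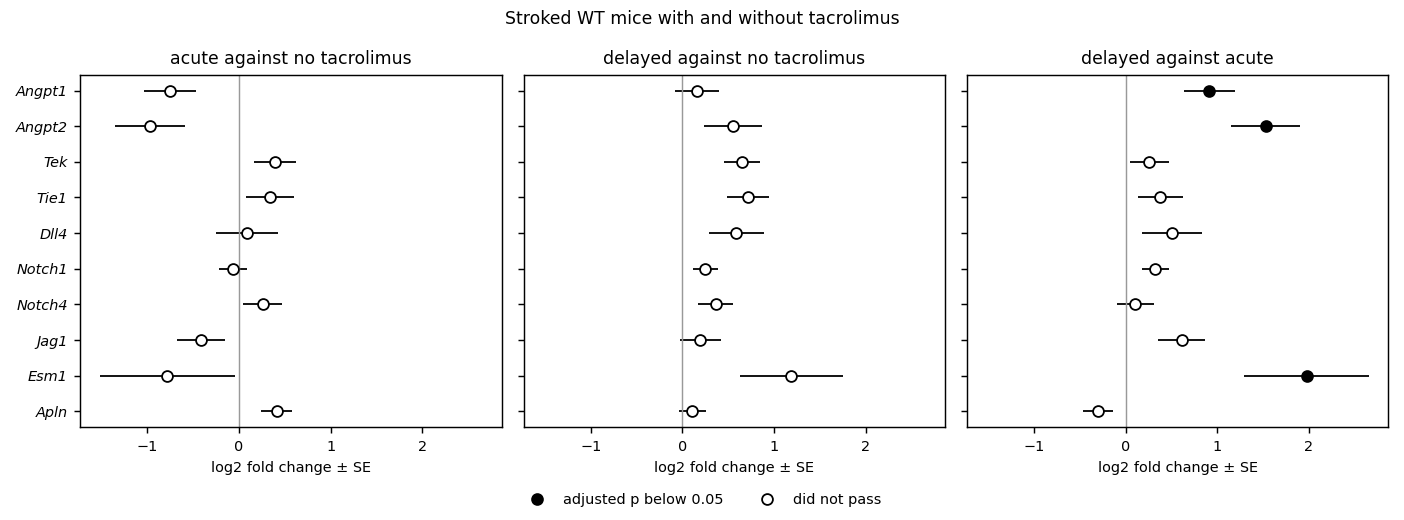
Log2 fold change of each of the 10 genes between stroked WT mice with acute, delayed or no tacrolimus, with bars for 1 SE and filled points for an adjusted p below 0.05. Filled points occur only in the panel of delayed against acute tacrolimus (Angpt1, Angpt2 and Esm1), and all 10 points of delayed against no tacrolimus lie right of 0.

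Of the 52 other pathway genes, 0 passed edgeR's test between acute or delayed tacrolimus and untreated stroked WT mice, where 0% of all genes were called. An unadjusted edgeR p below 0.05 was found for 6 and 9 of them, beside 2168 and 3455 of all 17031 genes. Between delayed and acute mice 10 were called, 8 higher and 2 lower in delayed mice, where 20.3% of all genes were called. Svep1, a ligand of Tie1 (1.15), Notch2 (0.89), Mfng (0.91), Maml2 (0.63), Adam17 (0.57), Cxcr4 (1.60), Nid2 (1.48) and Plaur (1.03) were higher, and Rfng (-0.34) and Cd34 (-0.88), named although outside the rule for naming genes, were lower. The 6 of 7 fibroblast markers called there were higher as well, with Lum at 2.78. All of these calls were lost with the TF cohort alone, with only these groups and without acute mouse 1 or 2, where no gene was called.

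Finally, the strains were compared without stroke. Rag2-/- against WT gave 0 calls among the 10 genes with edgeR and DESeq2, where 0.00587% of all genes were called. None of the 10 had an unadjusted edgeR p below 0.05, against 349 of all 17031 genes. NSG against WT gave 0 calls by either tool (9.76% of all genes by edgeR). At an unadjusted edgeR p below 0.05 there were 3 of the 10 genes and 3894 of all 17031 genes. Jag1 was at 10.3, 7.36, 12.4 and 10.6 CPM in NSG against 7.18, 7.94, 6.89 and 5.11 CPM in WT mice, overlapping by 1 mouse (log2 difference 0.59 ± 0.237 SE, edgeR adjusted p = 0.125). It was called when the cohort was a covariate (edgeR adjusted p = 0.0348). NSG against Rag2-/- gave 1 call, Apln, where 6.33% of all genes were called. Apln did not overlap between these groups, nor did 24.3% of all genes. It was lower in NSG mice, by a log2 fold change of -0.56 ± 0.167 (SE, n = 4 and 3, edgeR adjusted p = 0.0415). That call was lost in 5 of 7 fits leaving out 1 mouse.

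Rbpj, the DNA-binding partner of all Notch receptors, was lower in NSG mice with or without stroke. It averaged 10 ± 0.637 CPM (SD, n = 4) in non-stroked NSG, 23.8 ± 1.84 CPM (SD, n = 4) in WT and 22.7 ± 1.96 CPM (SD, n = 3) in Rag2-/- mice. The log2 fold change of NSG against WT was -1.25 (edgeR adjusted p = 2.7e-10), and stroked NSG mice stood at 8.66 to 11.1 CPM. Notch3, a receptor of mural cells (0.62), Svep1 (1.36), Nrarp (0.39), Lfng (0.33) and Aplnr, the apelin receptor (1.69), were higher and Adm (-0.77) was lower in non-stroked NSG than WT mice. With Rbpj these were the 7 calls among the 52 other pathway genes, 5 higher and 2 lower, where 9.76% of all genes were called.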

How the data were processed

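Whole-number counts of reads per gene, not normalized, were deposited by the authors for 29 mouse brain samples and 25746 Ensembl genes. Per the methods, polyA RNA was selected, TruSeq stranded libraries were made and reads were aligned and counted at a core facility. The aligner, genome build and use of strand in counting are not given in the sources used here. Symbols and positions were taken from GENCODE M21 (GRCm38), where 25712 IDs were found and 34 were not, and upstream sequences from RefSeq (GRCm38.p6).

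Groups came from the labelled strain, treatment and title. Counts were tested in R 4.3.3 with edgeR 4.0.16 (TMM, filterByExpr, quasi-likelihood F test), in 1 fit of 8 groups and 17031 genes, with Benjamini-Hochberg adjustment over all of them and a threshold of 0.05. The SE is the absolute log2 fold change divided by the square root of F. CPM used TMM library sizes and RPKM the exon length. Deviations and relative levels were taken on log2 CPM (prior count 2). The procedure was tested on simulated data. Intervals of counting error do not cover differences between mice.

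The 10 genes and the gene lists were chosen with earlier results of these data known, and no list was tested as a set. Of each list, at most the 3 genes with the largest change among those called were named, and the 3 genes most like each member, along with Hes5, Lfng, Jag2 and Rbpj in more detail. Alternatives were DESeq2 1.42.0, another normalization, other filters, a fold limit, the cohort as a covariate, fits within Imm2 or of only the groups compared, a replicate block and leaving out each sample. Fits within TF and a covariate from 4 Y-linked genes (Ddx3y, Kdm5d, Eif2s3y and Uty, summed CPM above or below 1) were chosen after seeing the data. The latter stands in for a planned rule on Xist, which was not used here.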

Additional observations from a re-analysis of the deposited data

Results flagged for a closer look

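Values of the 10 genes in the 4 groups of 4 or 5 mice gave 40 sets, and in 2 of them 1 mouse lay far from the others by Dixon's criterion, which chance alone meets in about 1 of 20 sets. Both were in WT-Tacr delayed mouse 5. Its Notch4 value was 10.8 CPM against 7.29 to 7.65 CPM in the other 4 mice, and its Apln value was 19.7 CPM against 27.1 to 29.9 CPM. The same mouse had the highest summed fibroblast markers of all 29 samples (1970 CPM).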

How the results depend on the processing

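Over 140 values of the 10 genes, 2543 alternative values were computed, of which 2441 kept their side of the threshold (and their direction where called), 59 lost and 39 gained a call, and 4 were called on one side and turned sign. The latter were delayed tacrolimus against non-stroked WT for Tek (-0.73 with the cohort and -0.54 with Y-linked RNA as a covariate) and Jag1 (-0.32 and -0.032). Counts of the 10 genes called are given next, each followed in brackets by the number of all genes called in the same fit, where given. For stroke in WT the count was 3 (4579), with 5 under the Y-linked covariate (2834) and 2 to 3 leaving out 1 mouse (2690 to 5144). With the cohort covariate the count was 3 (2096) but Tie1 and Dll4 stood in place of Angpt1 and Angpt2. Stroke in Rag2-/- mice gave 1 (1402), and 3 with the cohort as a covariate (1953), within Imm2 (1764) and with DESeq2 (1841). It gave 4 in a fit of only these groups (2455), 2 with the Y-linked covariate (2512) and 0 to 1 leaving out 1 mouse (495 to 1294). Stroke in NSG mice gave 1 (3726), with 0 for only these groups (792), 5 with the Y-linked covariate (2356) and 1 to 2 leaving out 1 mouse (1885 to 4737). Acute tacrolimus against non-stroked WT gave 0 (1454), and 2 with the Y-linked covariate (204). Delayed tacrolimus against non-stroked WT gave 5 (9393), and 3 with a log2 fold limit of 1 (2636). It gave 1 with the cohort covariate (1533) and 4 to 5 leaving out 1 mouse (8301 to 9018). Against stroked WT, acute and delayed tacrolimus each gave 0 (0). Leaving out 1 mouse, acute gave 0 to 1 (0 to 1437) and delayed 0 to 2 (0 to 1053). Delayed against acute gave 3 (3465), and 1 with the cohort covariate (1583). It gave 0 with only these groups (0), 0 within TF (0) and 0 to 4 leaving out 1 mouse (0 to 5793). NSG against WT without stroke gave 0 (1662). It gave 1, Jag1, with the cohort (2198) or Y-linked covariate (1890), within Imm2 (1875) and with only these groups (2511). NSG against Rag2-/- without stroke gave 1 (1078). It gave 0 with the fold limit, 0 with only these groups and 0 to 1 leaving out 1 mouse. With the Y-linked covariate it gave 1, which was Jag1 and not Apln. The cause of these shifts was not tested.

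Mice of the non-stroked groups share numbers, but the deviations of same-numbered mice correlated at only -0.258 to 0.108, so the numbers do not pair them. With the replicate block, NSG against WT gave 1 call among the 10 genes, as did the same mice unpaired, Rag2-/- against WT gave 0 and NSG against Rag2-/- gave 0. Delayed tacrolimus against non-stroked WT could not be fitted within a cohort. Low counts limit Esm1 in every comparison.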
